A study of Mus musculus with 6 samples.

Results

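Cluster 6 is 1 of 11 clusters into which the authors divided single hematopoietic stem cells (HSCs), and it was taken as the authors drew it. It holds 310 of 22378 cells, or 1.39%, pooled over all 6 libraries of the study. The cells had been sorted as HSCs from the bone marrow of mice that all carried Gfp-Lc3, a reporter in which green fluorescent protein is fused to the autophagosome protein LC3. There was 1 library per group: old mice fed ad lib, old mice fasted for 24 h, old mice fasted for 24 h and refed for 24 h, and young mice under the same 3 feeding regimes. The sources used here do not give the ages in months, the reporter's promoter or how many animals were behind a library. The values analysed compare each cluster with all other cells and do not separate the libraries, so nothing below compares ages or feeding states, and no spread between animals can be given.

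Long-term HSCs are rare, mostly non-dividing cells that sustain all blood lineages. They are known for a low rate of protein synthesis, a low reliance on mitochondrial respiration and a transcription programme held by factors such as MECOM, HLF, ERG and MEIS1. Mitochondria keep a small circular genome of their own, which is transcribed inside the organelle as long precursors and encodes core subunits of the respiratory chain, while most respiratory subunits and all cytoplasmic ribosomal proteins are encoded in the nucleus. Single-cell libraries count transcripts by unique molecular identifiers (UMIs), so the amount of RNA recovered differs from cell to cell.

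Most called genes of cluster 6 were lower than in other cells. Of 17068 genes, 4466, or 26.2%, were called lower and 8, or 0.0469%, higher. The 13 mitochondrially encoded protein genes had lower levels than in any other cluster. Several nuclear and imprinted non-coding RNAs were low too, though cluster 8 had a lower summed level of the list given below. Many long genes were low, and folds fell with gene length in cluster 1 as well, over a smaller range. Transcripts of nuclear respiratory genes and of ribosomal proteins stood at or slightly above the level of other cells. A gene counts as called where the authors' deposited table gives a log2 fold change of at least 0.5 in size and an adjusted p under 0.05. That p compares cells with each other, in clusters that were drawn on the same counts, and serves here only as a filter. Of the 4466 lower genes, 2383 had no count in the 310 cells and 2083, 12.2% of all genes, had one. The call is not symmetric for rare genes. A gene with no count has no spread in cluster 6 and a fold set by a small constant. Of 2551 such genes, 2383 passed as lower. A gene held by a few cells can miss the p limit at a large fold. For example, the red cell gene Kel, at 6.37 in the authors' deposited table, was not called. The 26.2% includes the genes with no count. Among the 8534 genes at or above the median level, 6 were called higher, 0.0703%, and 1537 lower, 18.0%. A gene with no count in 310 cells can still be present in up to 0.968% of such cells.

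The whole distribution of folds was shifted. Over all genes, cluster 6 had a median log2 fold change of -0.32, against -0.17 in cluster 7 and between -0.07 and 0.12 in the other 9 clusters. It was -0.26 for genes at or above the median level. Only 22.9% of genes had a fold above 0. The folds compare log-averaged counts per 10000, which need not sum to the same total in each cluster. Over all genes they summed to 8180 in cluster 6, against 8790 in its other cells. The sum was 7072 in cluster 7 and 8796 to 9638 in the other 9 clusters. The part of this form of average in the shift was not tested. After the folds were centred on the median of all genes, 37 genes were called higher and 3112 lower, and higher genes made up 1.17% of the called genes, against 0.179% as deposited. The shift was smaller among abundant genes. Genes averaging 0.01 to 0.1 counts per 10000 had a median log2 fold change of -0.31, those at 1 to 3 had -0.16, those at 3 to 10 had -0.06 and those at 10 or more had 0.03. Each group below is therefore given with its median, to be read against -0.32.

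**Figure D1:**
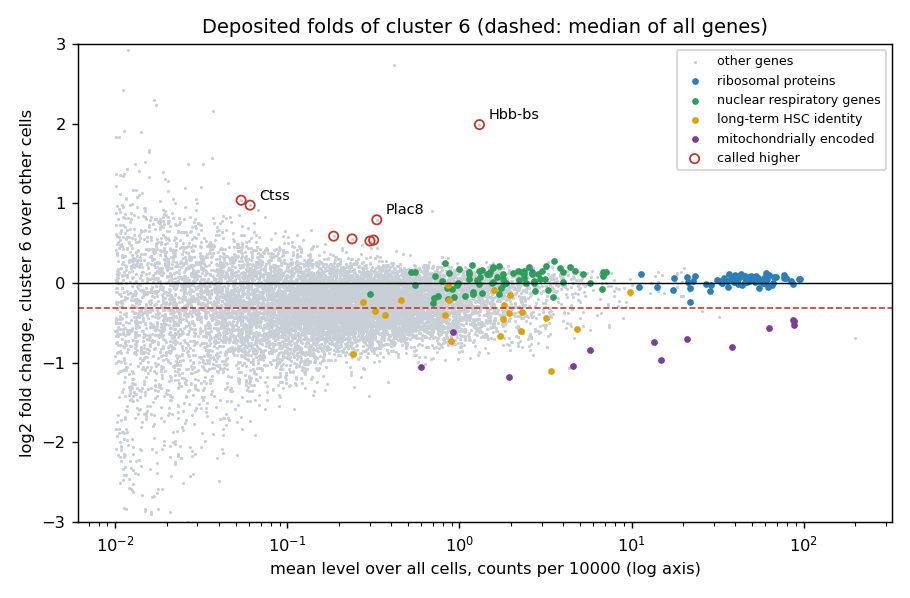
Log2 fold change of cluster 6 over all other cells (y axis, from the authors' deposited table) against the mean level over all cells in counts per 10000 (x axis, log scale); each point is a gene with a count in cluster 6, folds beyond 3 in size lie outside the axes, and the dashed line is the median of all genes, -0.32. Mitochondrially encoded genes lie below the line, ribosomal protein and nuclear respiratory genes lie near 0, and the 8 genes called higher are ringed.

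A few cells of cluster 6 were very shallow. Genes counted in exactly 1 cell of a cluster return that cell's UMI total as a whole number, and this gave totals for 226 of the 310 cells. The lowest total was 795, the quartiles were 8048.5, 10844 and 13574, and the highest was 23646. In clusters 0 to 4 at most 13 cells each were recovered, too few to compare. The medians elsewhere were 10713 for 213 of 267 cells of cluster 7, 12346 for 168 of 173 cells of cluster 8, 13369 for 111 of 112 cells of cluster 9 and 13467 for 147 of 1188 cells of cluster 5. Of the recovered totals in cluster 6, 16 were under 5000 and 3 under 1500. In cluster 7, 58 were under 5000, and in clusters 5, 8 and 9 there were 0. Totals of the other 84 cells of cluster 6 were not recovered, so these counts of shallow cells are lower limits, there and in the other clusters. In cluster 5 only 12.4% of cells were recovered, so its 0 and its median cannot be compared with those of cluster 6. The part of depth in the folds was not tested.

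**Figure D2:**
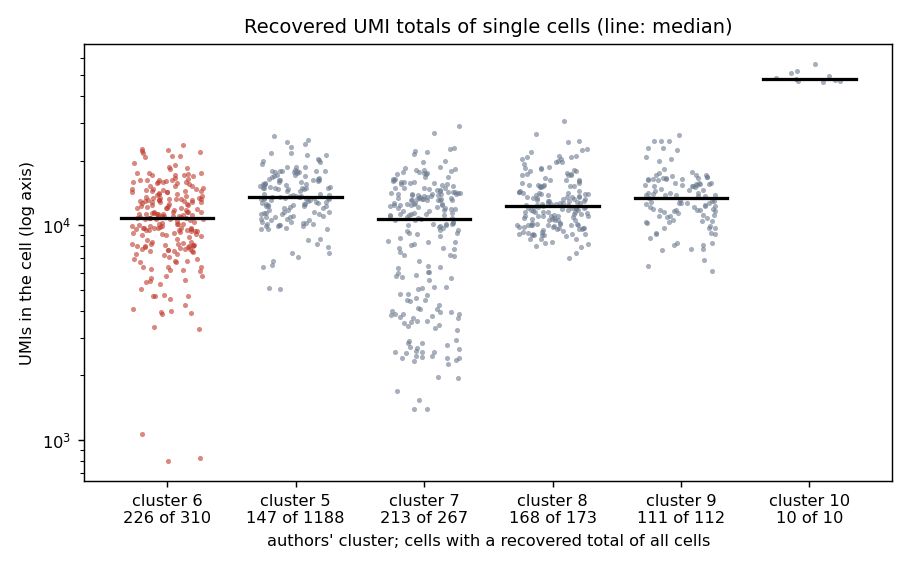
UMI total of each cell whose total could be recovered (points, y axis on a log scale) in cluster 6 and, to its right, clusters 5, 7, 8, 9 and 10; the line is the median and the axis labels give recovered and all cells. Cluster 6 reaches from 795 to 23646 UMIs, with 3 cells apart from the rest below 1500.

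The totals come from genes that 1 cell alone of cluster 6 holds, and some of these genes are named for the shallowest cells. A cell of 795 UMIs held 27 UMIs of Fabp4, 3 of Nfib and 1 each of Flt1 and Cd300lg, and Fabp4, Flt1 and Cd300lg are known from capillary endothelium. It also held 1 UMI each of Ces2e, Ppfia2 and Sdk2, among others. A cell of 821 UMIs held 4 UMIs of C1qb, 2 of Cd5l and 1 each of Cybb, Ms4a7, Cd209f and Tlr13, and C1qb, Cd5l and Cd209f are known from tissue macrophages. Among its other genes were Kcnj10 with 2 UMIs and Tmem26 and Ubd with 1 each. One further cell had 1072 UMIs, 1 of them of Kif4. The genes named were picked from longer sets after their counts were seen. No cell type is given to these cells.

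The label under which the cluster was proposed was Plac8-positive with low mitochondrial RNA. Its second part describes the levels given below, which come from the same counts and are no separate support for it. The markers proposed for cluster 6 were Plac8, a cysteine-rich protein gene expressed in lymphoid and myeloid cells, Cotl1, which encodes an actin-binding protein, Ctss, the lysosomal protease cathepsin S, Lgals1, the sugar-binding galectin-1, and Tnfaip8l2, a restraint on immune cell activation also called TIPE2. All 5 are among the 8 called genes, and the cluster was drawn on these counts, so their folds are a description. Plac8 was not particular to the cluster by level. Its level, the log-averaged counts per 10000 in a cluster, was 0.304 in cluster 6, against 0.401 in cluster 0, 0.354 in cluster 8, 0.306 in cluster 10 and 0.0711 to 0.151 in the other 7 clusters. At least 19.5% of the cells of cluster 6 had a Plac8 UMI, a lower limit that follows from the deposited p-values and gives no order between clusters. The cells are therefore called cluster 6 below.

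The other markers divided in the same way. Cotl1 had a level of 0.339 in cluster 6, against 0.394 in cluster 8 and 0.199 to 0.273 in the other 9 clusters. Lgals1 had a level of 0.229 in cluster 6, against 0.327 in the 10 cells of cluster 10, 0.256 in cluster 8 and 0.128 to 0.183 elsewhere. Both genes were thus high in cluster 8 as well. Ctss had its highest level in cluster 6, 0.0803, against 0.0133 to 0.0527 in the other 10 clusters, and at least 27 of the 310 cells held it. Tnfaip8l2 was also highest in cluster 6, at 0.0762, with cluster 0 next at 0.0642 and the others between 0.0102 and 0.0539. At least 22 cells of cluster 6 held it.

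In the authors' deposited table the log2 fold changes of cluster 6 over other cells were 0.79 for Plac8, 0.54 for Cotl1, 0.98 for Ctss, 0.55 for Lgals1 and 1.04 for Tnfaip8l2. The other 3 called genes were Tmem191c at 0.53, Ccdc167 at 0.59 and Hbb-bs at 1.99 in the authors' deposited table. Tmem191c encodes a predicted membrane protein and Ccdc167 a small coiled-coil protein, and both had their highest level in cluster 6, 0.318 for Tmem191c and 0.203 for Ccdc167. Hbb-bs, an adult beta globin gene, had a level of 0.201 in cluster 6, against 0.0389 to 0.0942 in the other 10 clusters. At least 11 cells of cluster 6 held it. Globin genes have near-identical copies, between which the counting may divide reads.

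**Figure D3:**
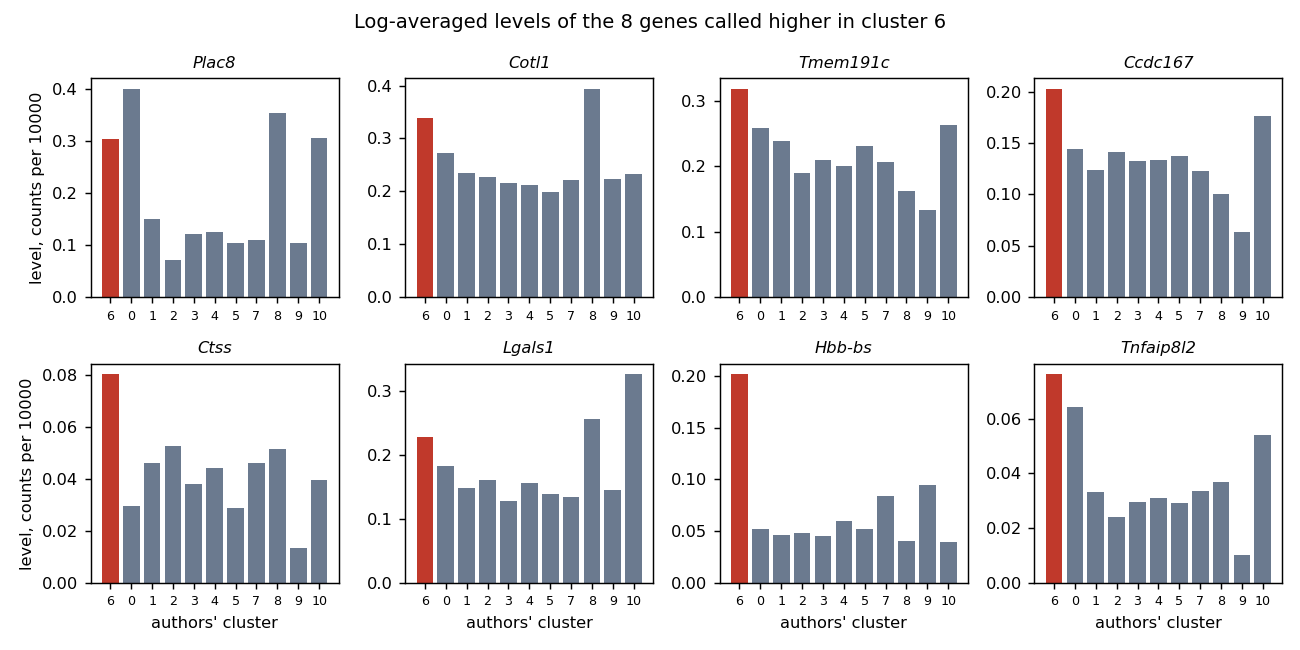
Log-averaged level in counts per 10000 (y axes, from 0) of the 8 genes called higher in cluster 6 (red, left of the other 10 clusters). Plac8 is higher in clusters 0 and 8 than in cluster 6, and Hbb-bs stands highest in cluster 6 at 0.201.

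Promoters are shown for genes that were called higher together. RefSeq (GRCm38.p6) gives 7 promoter windows for 6 of the 8 genes, Plac8 having 2, and the 250 bases before the start were searched on both strands for GAGGAA, a core that PU.1 can bind, for the interferon response core GAAANNGAAA, the STAT core TTCNNNGAA, the E-box CACGTG and the core AGATAA of erythroid GATA factors. Capitals mark matches. The other Plac8 window, at chr5:100563097-100563346 on the minus strand, had 0 matches and is not shown. The Ctss window lies at chr3:95526536-95526785 on the plus strand, the Plac8 window shown at chr5:100572206-100572455 on the minus strand and the Hbb-bs window at chr7:103827929-103828178 on the minus strand.
Ctss: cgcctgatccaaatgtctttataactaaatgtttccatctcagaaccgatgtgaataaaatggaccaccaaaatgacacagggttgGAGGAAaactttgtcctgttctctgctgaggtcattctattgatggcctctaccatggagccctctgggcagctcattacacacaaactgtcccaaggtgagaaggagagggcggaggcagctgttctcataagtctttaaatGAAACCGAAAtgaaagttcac
Plac8: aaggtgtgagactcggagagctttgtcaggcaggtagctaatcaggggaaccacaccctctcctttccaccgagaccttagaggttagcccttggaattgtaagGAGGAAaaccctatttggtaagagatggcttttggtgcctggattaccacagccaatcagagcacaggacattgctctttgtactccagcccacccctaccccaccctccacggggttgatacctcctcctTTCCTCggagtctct
Hbb-bs: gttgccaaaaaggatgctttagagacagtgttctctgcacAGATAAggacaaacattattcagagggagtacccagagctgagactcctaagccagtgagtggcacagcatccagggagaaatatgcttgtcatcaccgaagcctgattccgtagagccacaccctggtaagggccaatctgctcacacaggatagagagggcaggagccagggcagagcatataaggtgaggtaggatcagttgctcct
GAGGAA was found in 3 of the 7 windows, 1 each of Ctss, Plac8 and Ccdc167, and in 23.3% of all 32851 windows. GAAANNGAAA was found in the Ctss window alone of the 7, and in 2.98% of all windows. AGATAA was found in the windows of Hbb-bs and Ccdc167, and in 9.99% of all windows. The STAT core and the E-box were found in none of the 7, against 7.02% and 6.02% of all windows. Matched letters do not show binding.

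Several genes just outside the call lay close to these. Tnfrsf18, a receptor of the tumour necrosis factor family, had a log2 fold change of 0.48, and Hcst, the adaptor DAP10 of activating receptors, had 0.44 in the authors' deposited table, both under the fold limit. Cxcr3, a chemokine receptor of T and natural killer cells, had 3.84 and Hba-a1, an alpha globin gene, 3.26 in the authors' deposited table, and both missed the p limit. The adaptor Tyrobp (DAP12) lay further from the p limit and was not called. Its level was 0.0650 in cluster 6, against 0.0146 to 0.0396 in the other 10 clusters. A list of signalling adaptors, Fc and innate receptors had 23 measured genes. Of these, 8 were called lower, 1 of them with a count, and 0 higher, against 26.2% and 0.0469% of all genes. The list's median log2 fold change was -0.26. The genes that lead the authors' deposited table are abundant and little changed: Fth1, the ferritin heavy chain, with a log2 fold change of 0.19, Cox6c, a subunit of cytochrome c oxidase, with 0.27, and the histone gene H3f3a with 0.14.

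Low mitochondrially encoded transcripts set cluster 6 apart from every other cluster. Of the 13 genes, 11 were called lower, with a median log2 fold change of -0.74, against 26.2% of all genes lower and an all-gene median of -0.32. The most negative folds were those of complex I genes. The level of mt-Nd1 was 7.08 in cluster 6, against 28.1 in cluster 7 and 12.3 to 16.7 in the other 9 clusters, and that of mt-Nd5 was 1.97 in cluster 6, against 8.78 in cluster 7 and 3.84 to 4.96 elsewhere. In the authors' deposited table the log2 fold changes were -0.97 for mt-Nd1, -1.04 for mt-Nd5, -1.05 for mt-Nd6 and -1.18 for mt-Nd4l. The cytochrome b gene mt-Cytb stood at 20.95 in cluster 6, against 79.2 in cluster 7 and 33.3 to 38.7 elsewhere. The genes of the cytochrome c oxidase and ATP synthase subunits were closest to the other cells. mt-Co1 had a log2 fold change of -0.53 and mt-Co2 of -0.57 in the authors' deposited table. mt-Co3 had -0.47 and mt-Atp6 -0.46 in the authors' deposited table, and these were the 2 genes of the list that were not called. Every one of the 13 genes had a lower level in cluster 6 than in each of the other 10 clusters.

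The measured mitochondrial level also varied more between the cells of cluster 6 than between those of most clusters. The standard deviation over cells of ln(1 + counts per 10000), taken as the median over the 13 genes, was 0.636 in cluster 6, against 0.598 in cluster 7 and 0.195 to 0.367 in the other 9 clusters. For mt-Nd1 it was 0.824 in cluster 6, against 0.560 in cluster 7. The genes of the large ribosomal subunit had a median standard deviation of 0.516 in cluster 6, against 0.888 in cluster 7 and 0.113 to 0.234 elsewhere, and those of the small subunit had 0.520 in cluster 6, against 0.944 in cluster 7 and 0.112 to 0.226 elsewhere. Cluster 6 thus had a wide measured spread in 2 abundant classes of RNA, only 1 of which had genes called. This spread includes counting noise, which is larger where levels or UMI totals are low. Recovered totals under 5000 lay in clusters 6 and 7 only, though few cells of clusters 0 to 4 were recovered. Cluster 10, with a median total of 48112.5, had the lowest spread in each list. The part of depth in the spread was not tested.

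**Figure D4:**
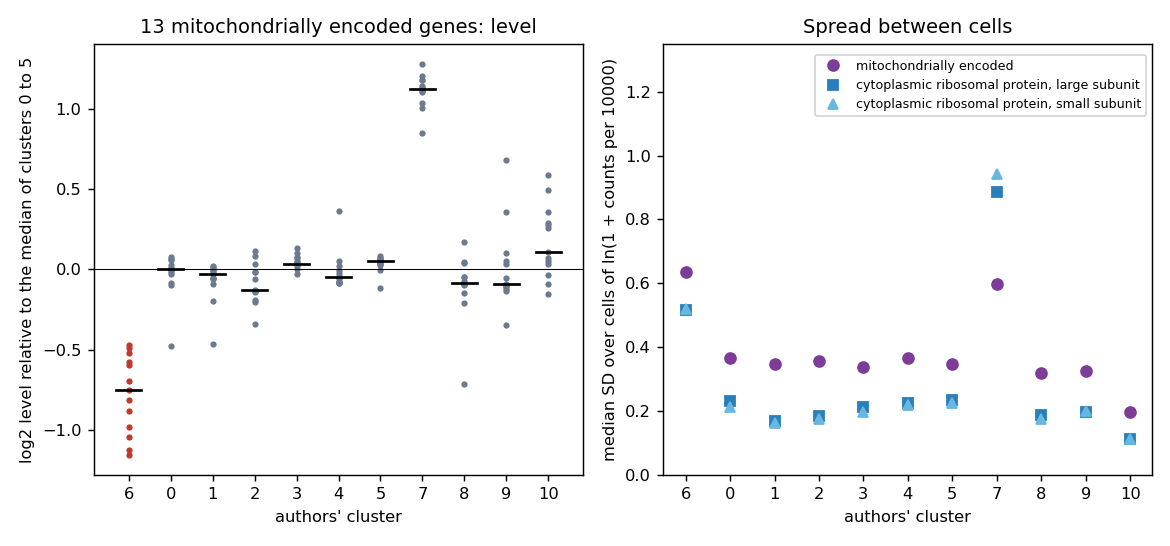
Left, log2 level of each of the 13 mitochondrially encoded genes relative to its median over clusters 0 to 5 (points; line, median of the genes), with cluster 6 in red at the left. Right, median standard deviation over cells of ln(1 + counts per 10000) for 3 gene lists; clusters 6 and 7 are the 2 with the widest spread in each list.

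The nuclear partners of these genes were not low. None of the 78 measured nuclear genes of the respiratory chain and ATP synthase was called in either direction. Their median log2 fold changes were 0.09 for 36 complex I genes, 0.04 for 25 genes of complexes II to IV and 0.11 for 17 ATP synthase genes. These genes are mostly short and abundant, and the medians of genes of like level and transcript length were -0.02, 0.02 and -0.05, so they lay near such genes. In cluster 7 the medians of the 3 lists were -0.54, -0.69 and -0.72. Examples from the authors' deposited table are Cox6c at 0.27, the complex I gene Ndufa1 at 0.25 and the ATP synthase gene Atp5d at 0.22 in cluster 6. The 47 genes of the large ribosomal subunit had a median log2 fold change of 0.06 in cluster 6 and -0.89 in cluster 7. The 33 genes of the small subunit had 0.04 in cluster 6 and -0.95 in cluster 7. None of the 80 genes was called. Among 19 genes for the expression of the mitochondrial genome, 2 were called lower, against 26.2% of all genes. They were the rRNA methyltransferase gene Tfb1m at -1.03 and Lrpprc, whose protein stabilises mitochondrial mRNA, at -0.57 in the authors' deposited table.

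A list of 11 measured nuclear and imprinted long non-coding RNAs was low, while long non-coding RNAs as a class lay near the general shift. Of the 11, 7 were called lower, 2 of them with no count in cluster 6, against 26.2% of all genes, and the median log2 fold change was -1.07. It was -0.79 for members with a count and -0.74 for the 6 at or above the median level. The list's median longest transcript was 6983 nucleotides. The median of genes of like level and transcript length was -0.44. Of 9 members with such a comparison, 7 lay below it. Among genes at or above the median level, 63 lincRNAs had a median of -0.29 with 30.2% called lower and 55 antisense genes had -0.24 with 18.2%, against -0.26 and 17.9% for protein-coding genes. The summed level of the list was 118 in cluster 6, against 89.0 in cluster 8. Kcnq1ot1, an imprinted antisense transcript that stays at its locus, had a level of 1.59 in cluster 6, against 2.45 to 6.13 in the other 10 clusters, and whether its counting used strand is not stated. Malat1, a nuclear speckle RNA named here after its values were seen, stood at 115 in cluster 6, against 83.3 in cluster 8, 284 in cluster 7 and 147 to 226 in the other 8 clusters. Rian and Meg3, imprinted transcripts of the same locus, were lower still in cluster 8. Rian had a level of 0.0332 in cluster 6, against 0.0225 in cluster 8, and Meg3 had 0.477 in cluster 6, against 0.213 in cluster 8 and 0.366 in cluster 0.

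Long genes were lower than short ones at the same level. Among 1088 nuclear genes averaging 1 to 10 counts per 10000, divided into 5 equal bins by span in the genome, the shortest bin (median 3.155 kb) had a median log2 fold change of -0.02 and the longest bin (median 83.53 kb) had -0.45. The share called lower was 4.59% in the shortest bin and 43.1% in the longest. The medians of the bins in between were -0.02, -0.11 and -0.29. Transcript length ran with it. Genes with a short transcript and a short span had a median of -0.01, those with a short transcript and a long span -0.10, those with a long transcript and a short span -0.14 and those long in both -0.40, with the splits at 2575 nucleotides and 15.18 kb. Across these 1088 genes Pearson's r between the fold and log10 transcript length was -0.645 and with log10 span -0.547. Genes are not independent replicates and share these cells and their depth, so r is a description. Cluster 7 ran the other way, with r of 0.66 for transcript length and 0.50 for span over the same genes, as did cluster 4, with 0.55 and 0.44. Cluster 1 ran the same way as cluster 6, with -0.40 for transcript length and -0.27 for span, and cluster 8 had -0.10 and -0.03. At 0.1 to 1 counts per 10000 the r with transcript length was -0.41 in cluster 6 and -0.39 in cluster 1. At 0.1 to 1 counts per 10000, over 7175 genes, the medians of the 5 bins by span in cluster 6 were -0.12, -0.21, -0.28, -0.36 and -0.41, shortest to longest. The range was smaller in cluster 1, where the shortest bin had -0.01 and the longest -0.10. At 1 to 10 counts per 10000 these bins of cluster 1 had 0.02 and -0.06. Among genes at or above the median level the medians by nuclear chromosome lay between -0.34 on chromosome 18 and -0.19 on chromosome 7.

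**Figure D5:**
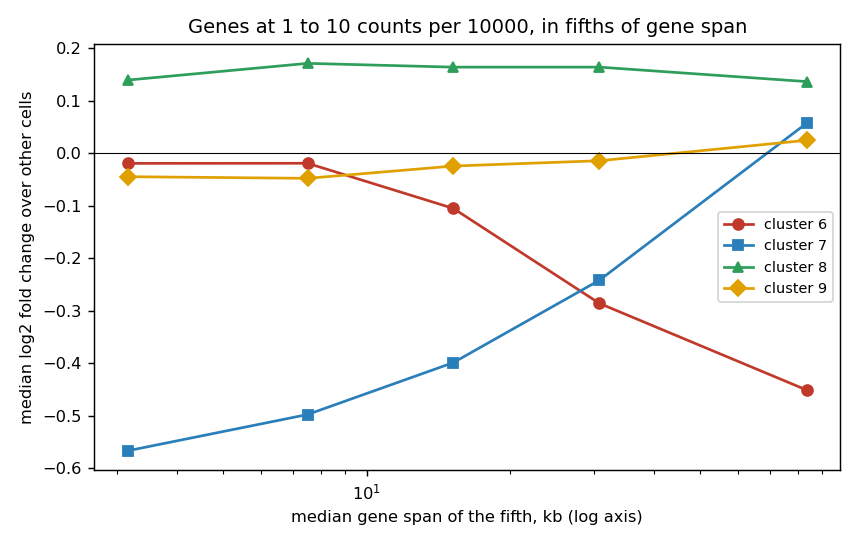
Median log2 fold change over other cells (y axis) of 1088 genes averaging 1 to 10 counts per 10000, in 5 bins of gene span (x axis, median span of the bin in kb, log scale), for cluster 6 and clusters 7, 8 and 9. Cluster 6 falls with span, to -0.45, cluster 7 climbs to 0.06, and clusters 8 and 9 are nearly flat.

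Cluster 6 was often the lowest cluster. Among the 8534 genes at or above the median level, cluster 6 had the lowest level of 10 clusters, leaving out the 10 cells of cluster 10, for 3691 genes or 43.3%. Cluster 7 was lowest for 31.3%, cluster 9 for 10.1% and cluster 8 for 8.05%. Cluster 6 was highest for 2.26%, against 35.8% for cluster 8, 18.6% for cluster 9 and 18.0% for cluster 7. Clusters 7, 8 and 9 hold fewer cells than cluster 6, and the levels of small clusters vary more from sampling alone. The genes with the most negative folds among well-detected genes were Lmf1, a lipase maturation factor, at -1.58, Rian at -1.41 and the 3' end processing gene Cstf2t at -1.36 in the authors' deposited table.

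HSC identity genes were detected. The share of them called lower was near that of all genes and above that of genes at or above the median level. All 12 markers of long-term HSCs had a count, and their summed level was 12.2 in cluster 6, against 13.3 to 20.5 in the other 10 clusters. Of 21 genes of long-term HSC identity, 6 were called lower and 0 higher. The share called lower was 26.2% of all genes and 18.0% of genes at or above the median level, where all 21 lie. The median log2 fold change of the 21 was -0.38, against -0.32 for all genes and -0.26 at or above the median level. The stem cell factor receptor gene Kit stood at 1.22 in cluster 6, against 1.67 to 2.72 elsewhere. The zinc finger factor gene Mecom stood at 0.865 in cluster 6, against 1.37 in other cells. The leucine zipper factor gene Hlf stood at 2.56 in cluster 6, against 2.94 to 5.17 elsewhere. The ETS factor gene Erg had a log2 fold change of -0.73 and Ctnnal1, an alpha-catenin relative, -0.89 in the authors' deposited table. Of the 21 genes, 16 lay below the median fold of genes of the same level range and transcript length bin, and the median of those bin medians was -0.29. Procr, the endothelial protein C receptor known as an HSC surface marker and named here after its values were seen, stood at 1.14 in cluster 6, against 1.21 in other cells, and was not called.

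Other stem cell lists had medians near the general shift. Their counts of lower genes are to be read against 26.2% of all genes, or 18.0% of those at or above the median level, and all but that of the immediate early genes are near or below the first of these shares. Of 17 quiescence genes, 5 were called lower, with a median of -0.39. They include the cell cycle inhibitor gene Cdkn1a at -1.02 and the nuclear receptor gene Nr4a1 at -1.07 in the authors' deposited table. Of 26 immediate early genes, which respond within minutes to stimulation, 11 were called lower, with a median of -0.39. Egr1 stood at 1.19 in cluster 6, against 9.53 in cluster 9 and 1.43 to 2.59 elsewhere. Of 25 HSC ageing genes, 4 were called lower and the median was -0.32. Of 35 autophagy genes, 8 were called lower, with a median of -0.38. They include Rb1cc1, of the initiating ULK complex, at -0.94 and Atg5, of the LC3 conjugation machinery, at -0.61 in the authors' deposited table. Of 22 cytokine receptor and JAK-STAT feedback genes, 6 were called lower, with a median of -0.37. They include the interferon receptor gene Ifnar1 at -0.81 and the feedback inhibitor gene Socs2 at -0.62 in the authors' deposited table. Of 26 genes of MYC and nucleolar ribosome assembly, 6 were called lower, with a median of -0.31, Myc itself at -0.87 in the authors' deposited table. Of 18 chaperone genes, 5 were called lower, with a median of -0.30. None of these lists had a gene called higher. The medians of genes of like level and transcript length were -0.22 for quiescence, -0.21 for immediate early and for MYC and nucleolar genes, -0.26 for chaperones, -0.29 for HSC ageing and autophagy and -0.34 for cytokine receptors. Members below their own bin numbered 9 of 17 for quiescence, 14 of 23 for immediate early, 18 of 26 for MYC and nucleolar, 11 of 18 for chaperone, 17 of 25 for HSC ageing, 23 of 35 for autophagy and 12 of 21 for cytokine receptor genes.

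Other lists had medians above -0.32, some of them only as far as genes of like level and transcript length did. Their counts of lower genes are again to be read against 26.2% of all genes, or 18.0% of those at or above the median level. All are below the first of these shares. The 36 actin monomer and filament genes had a median of -0.14, with Cotl1 called higher and 2 genes, Actr2 of the ARP2/3 complex and the myosin gene Myh9, called lower. The 21 galectin, S100 and annexin genes had a median of 0.16, 20 of them above the all-gene median, and Lgals1 was the 1 gene called. The 18 cathepsin and cystatin genes had a median of -0.04, with Ctss higher and 3 genes lower, 2 of these without a count. Ctse, cathepsin E, had a level of 0.0926 in cluster 6, against 0.0434 to 0.117 elsewhere, and was not called. Of 25 lysosomal genes, 4 were called lower, including the cholesterol exporter gene Npc1 and the peptidase gene Tpp1, with a median of -0.21. Of 20 glycolysis genes, 2 were called lower, Hk1 and Pfkm, with a median of -0.06. The 27 S phase genes had 3 called lower and a median of -0.06, and the 26 G2M genes had 3 called lower and a median of -0.05. Ctss acts in antigen presentation by MHC class II. Of 10 MHC class II genes, 2 were called lower and none higher. They were Ciita, the class II transactivator, at -1.22 and H2-DMb2, a peptide exchange subunit, at -1.86 in the authors' deposited table. H2-DMb2 was counted in 1 cell of cluster 6, with 1 UMI. Among 18 MHC class I genes none was called, with a median of -0.07. Of 34 interferon-induced genes, 4 were called lower, with a median of -0.17. The medians of genes of like level and transcript length were -0.12 for the actin list, -0.22 for the lysosomal list and -0.09 for the MHC class II list, with 17 of 35, 15 of 25 and 6 of 10 members below their own bin. They were -0.15 for galectins, S100 proteins and annexins, with 5 of 20 below, -0.22 for cathepsins and cystatins, with 2 of 15 below, and -0.22 for glycolysis, with 5 of 19 below.

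Several markers of mature blood cells had higher levels in cluster 6 than in other cells without passing the call. Of 12 T cell markers, 9 were measured and none was called, but 8 of the 9 had their highest level in cluster 6. Only 1 of the 9 is at or above the median level, and no share over genes of like level was taken. In clusters 8, 9 and 10, which hold fewer cells, the median member had no count and so could not rank highest. The summed level of the 9 was 0.510 in cluster 6, against 0.282 to 0.387 in the other 10 clusters, of which Lat, a signalling adaptor, made up 0.320 in cluster 6, against 0.256 in other cells. The T cell receptor constant gene Trbc2 had a level of 0.0317 in cluster 6, against 0.000717 in other cells, and at least 4 cells of cluster 6 held it. Cd3d had a level of 0.0275 in cluster 6, against 0.000896 in other cells, also in at least 4 cells. Of 20 lymphoid priming genes, 3 were called lower, against 26.2% of all genes, and 0 higher, with a median of -0.32. Their summed level was 6.10 in cluster 6, against 7.56 to 10.3 in the other 10 clusters. Of 6 measured natural killer and innate lymphoid markers, none was called, and their summed level was 0.567 in cluster 6, against 0.425 to 0.704 in the other 10 clusters.

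Erythroid markers showed a similar pattern. Of 12, only Hbb-bs was called higher and Car1, with no count, lower, against 0.0469% and 26.2% of all genes. The list's summed level was 6.88 in cluster 6, against 4.69 to 9.41 elsewhere, of which Car2, a carbonic anhydrase gene, made up 5.94 in cluster 6 and 6.12 in other cells. Alas2, the first enzyme of haem synthesis in red cells, had a level of 0.0413 in cluster 6, against 0.000746 in other cells, in at least 4 cells. Hba-a1 had 0.136 in cluster 6, against 0.0142 in other cells, in at least 7 cells. Further red cell genes not on the list, picked after their values were seen, were Kel, with a level of 0.0227 in cluster 6, against 0.000274 in other cells, and the anion exchanger gene Slc4a1, with 0.0365 in cluster 6, against 0.000572 in other cells.

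Myeloid and B cell markers were mixed. Of 15 monocyte and macrophage markers none was called higher and 2 lower, both without a count, against 26.2% of all genes. Of the 15, 5 had their highest level in cluster 6, and no share over genes of like level was taken. Ccr2 had a level of 0.0145 in cluster 6, against 0.000390 in other cells, and Ly6c2 had 0.0328 in cluster 6, against 0.00107 in other cells, while Cx3cr1, F13a1 and Adgre1 had no count. The list's summed level was 2.63 in cluster 6, against 1.96 to 2.83 elsewhere. Of 11 measured B cell markers 5, among them Ms4a1, Ebf1 and Pax5, had no count. Ighm had a level of 0.0217 in cluster 6, against 0.00161 in other cells, in at least 5 cells. The list's summed level was 0.285 in cluster 6 and 0.285 in other cells. Of 12 endothelial markers 3 were called lower, with Cdh5 and Stab2 at no count, against 26.2% of all genes. Of 6 measured stromal markers 5 were called lower, 2 of them with a count, against 26.2% of all genes, and 3 had no count. None of the 6 is at or above the median level, and their summed level was 0.0398 in cluster 6, against 0.0778 in other cells. The 12 markers of cycling cells had none called, with a summed level of 0.869 in cluster 6, against 0.806 to 1.95 elsewhere. The part of these marker lists in the folds of cluster 6 was not tested.

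The pathway scores show the same downward shift. In the authors' deposited pathway table, which scores 2922 curated gene sets per cell, 8 sets, 0.274%, were scored higher in cluster 6 and 2449, 83.8%, lower at an adjusted p under 0.05, and the median log2 fold change was -0.21. In cluster 8, 1608 sets were higher and 186 lower. The 8 higher sets were led by the Reactome sets for Lafora epilepsy at 0.07 and for cross-presentation of particulate antigens in phagosomes at 0.17 in the authors' deposited table. Glucocorticoid biosynthesis was the largest of the 8, at 1.10 in the authors' deposited table. Among the sets scored lowest were circadian rhythm genes at -0.28, cell cycle at -0.28, chromatin modifying enzymes at -0.31 and SUMOylation at -0.27 in the authors' deposited table. Grouped by name, 4 translation and ribosome sets had a median of 0.02 with 1 called lower, against -0.79 in cluster 7. The 8 oxidative phosphorylation sets had a median of -0.09, above the -0.21 of all sets, with 7 lower. The other 9 groups had medians between -0.24 and -0.14. All 10 interferon sets, 14 antigen receptor sets and 13 Fc and Toll-like receptor sets were lower, and 37 of 39 cell cycle sets. The counts of each group are to be read against the 83.8% of all sets scored lower.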

How the data were processed

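Single-cell RNA libraries of sorted HSCs were analysed from 22 tables deposited by the authors, with genes in 11 tables and pathways in 11. Scanpy and mm10 are named per the submitters' processing notes; the counting, filters, doublet treatment and clustering settings are not stated in any source used. The authors' deposited log2 fold changes, deposited p-values, scores and log2 mean levels were read as they stand. From the values, each deposited fold is a ratio of log-averaged counts per 10000 with a small constant added, so a few cells of high counts weigh less than in a plain mean, and folds of genes without a count are set by that constant.

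Cell numbers were solved from the p-values of genes counted in 1 cell, and the 11 folds per gene were solved for each cluster's level. For 5511 genes a second route existed, and 99.6% of values lay within 0.1% of it. A cell's UMI total was accepted where at least 2 genes gave the same whole number within 0.05. The second moment over cells came from the same p-values and gives the spread and the lower limit on cells with a count. The steps were tested on simulated data. Gene positions and lengths came from GENCODE M21 for 16761 genes, 98.3% (Python 3.11.15, NumPy 2.4.6, pandas 2.3.3 and SciPy 1.17.1). The members and gene lists were chosen with earlier results of these data known. Genes named are the proposed markers, the first and last called genes of the authors' order, the largest folds at or above the median level, and up to 5 genes of largest fold per list, with the most abundant marker of a list and any other gene marked where it stands. No per-library values were used and no test was run. Some items are not reported here.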

Additional observations from a re-analysis of the deposited data

How the results depend on the processing

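No paired analysis was possible because each group is 1 library and the tables pool all libraries. Of the 8 genes called higher in cluster 6, a fold limit of 1 left 2 and a limit of 0.25 gave 18. Folds centred on the median of all genes gave 37 and on that of genes at or above the median level 18, while an adjusted p under 0.001 left 0 and no p limit gave 1309. Of the 4466 genes called lower, a fold limit of 1 left 2841, an adjusted p under 0.001 left 2837, genes at or above the median level numbered 1537 and genes with a count in cluster 6 numbered 2083. The median log2 fold change of -0.32 was -0.14 as a level-weighted mean. An adjusted p under 0.001 left 0 pathways scored higher and a fold limit of 0.1 left 2 of the 8. Of 34 gene lists, 27 had a median below 0, and 9 after the median of all genes was subtracted. Of 11 pathway groups, 10 had a median below 0, and 4 after the median of all pathways was subtracted. The cell number was 310 by each of 3 routes, which are not independent. The first rested on 1 gene and the second on 18. The third used means over all cells that had been read with the recovered cell numbers. Each change follows from the alternative's own construction: a stricter or looser limit, fewer genes, a shifted zero or, for the level-weighted mean, another statistic. Depth limits what low levels show: a gene seen in 1 cell of 310 and a gene seen in none cannot be told apart by these counts. The call does treat them differently, since most genes with no count were called lower.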
